A study of Mus musculus with 16 samples.

Results

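The circadian clock genes described here are Arntl, Clock, Npas2, Per1, Per2, Per3, Cry2, Nr1d1, Nr1d2 and Dbp, 10 of the 45706 genes in the deposited table, taken by their symbols and not by any measured value. They were followed in polyadenylated RNA of mouse quadriceps, with 8 libraries of a Nampt knockout limited to skeletal muscle (KO) and 8 libraries of the wild type (WT). The sources used here do not give the Cre driver, the floxed allele, or the age, sex, light schedule and hour of collection of the animals, nor do they say whether libraries share an animal, so the p-values measure the spread between these libraries. All 10 genes passed the filter on low counts.

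In the mammalian clock, ARNTL (also called BMAL1) pairs with CLOCK or its relative NPAS2 and switches on genes through E-box elements. Among those genes are the period genes Per1, Per2 and Per3 and the cryptochromes, whose proteins feed back to block the pair, and Nr1d1 and Nr1d2, whose proteins (REV-ERB alpha and beta) repress Arntl and Npas2 through ROR elements. Dbp encodes an output factor that binds D-boxes. Transcripts of the activator side (Arntl and Npas2) and of the E-box targets therefore peak at opposite times of day in many tissues, skeletal muscle among them, with Nr1d1 ahead of Dbp and Dbp ahead of Per2. Nampt itself is described as a clock-controlled gene, and NAD-dependent deacetylation of clock proteins as a route back to the clock.

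In GENCODE vM21 (GRCm38) all 10 are protein-coding genes. The activators lie with Arntl at chr7:113207465-113314126, Clock at chr5:76209868-76304792 and Npas2 at chr1:39193731-39363236. The repressors lie with Per1 at chr11:69095217-69109960, Per2 at chr1:91415982-91459324, Per3 at chr4:151003652-151044665 and Cry2 at chr2:92403646-92434043. The nuclear receptor genes and the output factor lie with Nr1d1 at chr11:98767932-98775333, Nr1d2 at chr14:18204054-18239127 and Dbp at chr7:45705088-45710203.

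The promoters of 9 of the 10 genes are in the RefSeq table of GRCm38.p6, in 13 windows that run from 250 bases before to 50 bases after an annotated start. These 3 sequences are examples that hold letters matching the E-box, the D-box or TNGGTCA, the pattern searched for the ROR element. The Cry2 window also held a TNGGTCA match and is not printed. A match by letters does not show that the clock proteins use that site. Matched letters are in capitals, 5′ to 3′ on the gene's strand. All bases of these 3 sequences lie before the annotated start of their window. The first is Per1 (chr11:69098699-69098948, plus strand), with the E-box CACGTG. This RefSeq window lies inside the GENCODE span of Per1 given above. Another Per1 window, at chr11:69099902-69100201, held none of the motifs searched. The second is Per3 (chr4:151044666-151044915, minus strand), with 2 D-boxes (TTANGTAA) and 1 match to TNGGTCA, here on the opposite strand. The third is Arntl (chr7:113207215-113207464, plus strand), with 2 ROR elements.
Per1 promoter: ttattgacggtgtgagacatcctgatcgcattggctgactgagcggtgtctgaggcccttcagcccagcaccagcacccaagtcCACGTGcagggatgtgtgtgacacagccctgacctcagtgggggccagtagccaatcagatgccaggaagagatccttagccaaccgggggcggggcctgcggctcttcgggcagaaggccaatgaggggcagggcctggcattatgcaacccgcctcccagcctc
Per3 promoter: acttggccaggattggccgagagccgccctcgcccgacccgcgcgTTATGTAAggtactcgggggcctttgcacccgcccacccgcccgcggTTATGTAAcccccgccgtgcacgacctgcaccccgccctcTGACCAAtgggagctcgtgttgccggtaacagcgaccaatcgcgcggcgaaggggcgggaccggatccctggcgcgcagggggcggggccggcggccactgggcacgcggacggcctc
Arntl promoter: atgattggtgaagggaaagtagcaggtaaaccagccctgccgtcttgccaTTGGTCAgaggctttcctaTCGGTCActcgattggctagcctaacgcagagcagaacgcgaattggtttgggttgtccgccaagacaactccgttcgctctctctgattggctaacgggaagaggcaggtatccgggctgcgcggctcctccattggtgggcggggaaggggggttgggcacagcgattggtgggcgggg
A further match to TNGGTCA, which reads TAGGTCA, stands at position 31 downstream of the second annotated start of Arntl, counted from 1 at the start.
Arntl element: ggcagaaagTAGGTCAgggacggag

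The motifs were searched on both strands and did not overlap one another in these windows. They were the E-box CACGTG, the related E-prime box CACGTT, the ROR pattern TNGGTCA, the D-box TTANGTAA and the cyclic-AMP response element TGACGTCA. Of all 32817 promoter windows of that length, 7.15% held the E-box, 4.69% the E-prime box and 11.0% the ROR pattern. The D-box stood in 2.32% and the cyclic-AMP element in 1.79%. Among the 9 genes, the E-box stood in Per1 alone, the E-prime box in Cry2 and Nr1d1, and the D-box in Per3 alone. The ROR pattern stood in Arntl, Per3 and Cry2. The windows of Clock, Npas2, Nr1d2 and Dbp held none of the 5, which says only that these letters are not in those windows.

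Libraries held between 16065394 and 51881258 estimated counts. Nampt was lower in every KO library (60.4 to 88.7 CPM, the count scaled to a common library size with TMM factors) than in every WT library (125.5 to 161.1 CPM), so the labels fit the targeted gene. The 9 muscle fibre markers, such as Ckm and Myh4, summed to between 139298 and 169418 CPM in every library. Markers of endothelial, macrophage, fibro-adipogenic, adipocyte, satellite, pericyte and erythroid cells were all detected. In the 9 lists 0 markers were called between KO and WT (edgeR adjusted p), where 0.0435% of all tested genes were called. The summed endothelial markers averaged 224.8 CPM in KO and 204.6 CPM in WT, and the pericyte markers 345.8 and 315.6 CPM. The muscle fibre markers went the other way, at 154035 and 158163 CPM. These differences in sums were not tested. In bulk tissue, a lower level cannot be told apart from fewer cells of a type that carries the transcript.

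Per kilobase of annotated exon, Nr1d1 had the highest mean level over the 16 libraries, 54.9 CPM per kb, with a range of 27.0 to 86.7. Dbp followed at 16.6 (5.77 to 41.0) and Nr1d2 at 14.6 (11.0 to 18.3). Cry2 and Per1 lay at 5.80 and 5.75 CPM per kb. Arntl, Per3, Per2 and Clock had means of 2.79, 2.27, 2.14 and 1.48 CPM per kb, and Npas2 was lowest at 0.354 (0.104 to 0.688). Neighbours in this order overlapped in range, except that every library of Nr1d2 lay above every library of Cry2, and every library of Clock above every library of Npas2. The exons of Nr1d1 share 263 bases with Thra on the opposite strand and those of Dbp share 539 bases with Sphk2. Those of Cry2 share 295 bases with D930015M05Rik and those of Arntl share 33 bases with Gm45355, also on the opposite strand and neither of them tested. The strand setting of the counting is not given, so reads from those bases cannot be assigned to one gene with certainty. Thra and Sphk2 had KO minus WT log2 fold changes of 0.04 and -0.10 (edgeR adjusted p = 0.898 and 0.831).

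**Figure D1:**
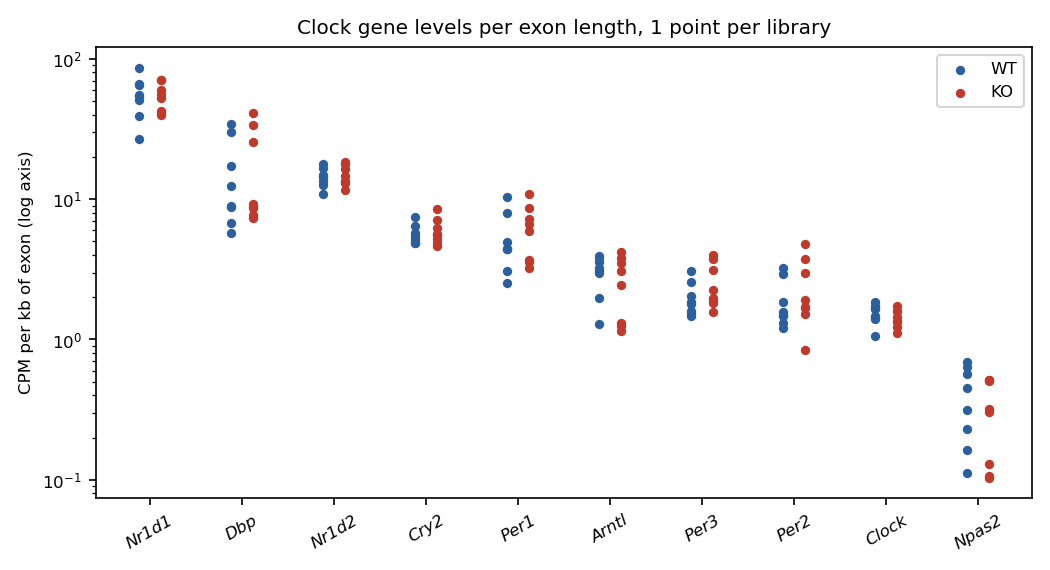
Level of each clock gene as CPM per kilobase of annotated exon, on a log axis, with 1 point for each of the 8 WT (blue) and 8 KO (red) libraries, genes ordered by their mean. Nr1d1 has the highest mean, 54.9, and Npas2 the lowest, 0.354, and red and blue points overlap in every gene.

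Arntl, the activator common to both pairs, had 8.64, 20.6 and 31.7 CPM as its lowest, median and highest KO library and 9.68, 23.8 and 29.5 CPM in WT. The low values came from KO libraries 4, 6 and 8 (9.88, 8.64 and 9.41 CPM) and WT libraries 6 and 7 (9.68 and 14.8 CPM), and the other 11 libraries lay between 18.3 and 31.7 CPM. Npas2, which can replace Clock as the partner of ARNTL, ran from 0.496 over a median of 1.49 to 2.48 CPM in KO and from 0.540 over 1.83 to 3.29 CPM in WT. The same 5 libraries held the 5 lowest values of Npas2, at 0.776 CPM or less, resting on as few as 13 estimated counts. Clock, the third activator, varied less: 15.3, 19.3 and 23.96 CPM in KO and 14.4, 21.5 and 25.4 CPM in WT. The 5 libraries ran from 14.4 to 22.7 CPM for Clock and overlapped with the others.

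Dbp, the output factor, was the most variable of the 10 genes, with a 7.11-fold ratio of its highest to its lowest library. Its lowest, median and highest values were 22.03, 27.1 and 122.9 CPM in KO and 17.3, 31.8 and 101.9 CPM in WT. KO libraries 4, 6 and 8 had 76.3, 122.9 and 101.1 CPM and WT libraries 6 and 7 had 101.9 and 89.8 CPM, above the other 11 libraries, of which WT library 8 was highest at 51.9 CPM and the rest reached 36.9 CPM. So the libraries low in Arntl and Npas2 were those high in Dbp, in both genotypes.

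Of the period genes, which encode the repressors of the loop, Per2 ran from 4.96 over a median of 10.6 to 28.0 CPM in KO and from 7.02 over 9.00 to 18.9 CPM in WT. The 5 libraries high in Dbp held 17.1 to 28.0 CPM of Per2, and the other 11 held at most 11.2 CPM. Per1 ran from 18.3 over 35.5 to 61.7 CPM in KO and from 14.2 over 24.8 to 58.3 CPM in WT. Per3 ran from 15.0 over 20.4 to 38.7 CPM in KO and from 14.0 over 17.5 to 29.3 CPM in WT. For Per1 and Per3 the same 5 libraries tended to the upper end (33.3 to 61.7 and 19.7 to 38.7 CPM) and overlapped with the others (14.2 to 40.5 and 14.0 to 24.6 CPM).

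Cry2, the other arm of the repressor complex, had 29.1, 35.5 and 53.4 CPM in KO and 30.9, 33.7 and 47.5 CPM in WT. It lay between 39.3 and 53.4 CPM in the 5 libraries and between 29.1 and 36.02 CPM in the other 11. Nr1d2, the REV-ERB beta gene, had 62.7, 76.0 and 98.8 CPM in KO and 59.3, 78.3 and 95.6 CPM in WT, with 89.0 to 98.8 CPM in the 5 libraries and 59.3 to 80.05 CPM in the other 11. Nr1d1, the REV-ERB alpha gene, departed from this order. Its values were 122.5, 167.6 and 217.5 CPM in KO and 83.2, 168.6 and 266.7 CPM in WT, and the 5 libraries (129.5 to 204.1 CPM) lay inside the range of the other 11 (83.2 to 266.7 CPM).

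**Figure D2:**
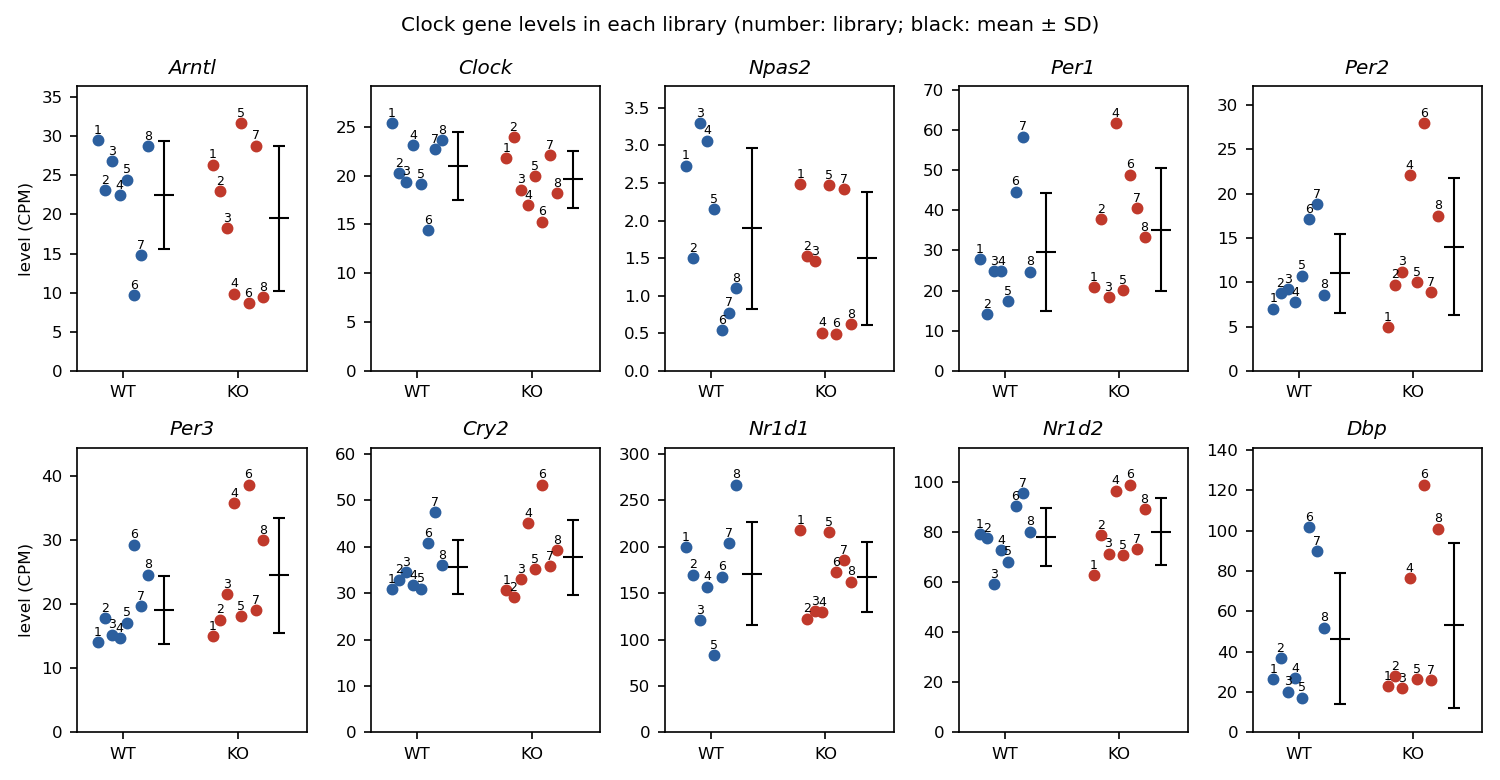
Level of each of the 10 clock genes in CPM, with 1 numbered point per library for WT (blue) and KO (red) and the mean ± SD of 8 libraries in black. KO libraries 4, 6 and 8 and WT libraries 6 and 7 are the lowest for Arntl and Npas2 and the highest for Per2, Cry2, Nr1d2 and Dbp, and KO and WT overlap in every panel.

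In all, 6 of the 10 genes separated KO libraries 4, 6 and 8 and WT libraries 6 and 7 from the other 11 with no overlap, Arntl and Npas2 lower and Per2, Cry2, Nr1d2 and Dbp higher. Among all tested genes 0.515% (71 of 13792) separated the same libraries. These 5 libraries were picked out from the values of the clock genes, so this is a description and not a test of those genes. They number 3 of 8 in KO and 2 of 8 in WT. Their totals ran from 24538644 to 38032642 estimated counts and their RIN, the RNA integrity number in the labels, from 8.4 to 8.8, both inside the range of the other 11 libraries (RIN 8.2 to 8.8). The share of counts in RNA without a poly(A) tail (histone genes and small RNAs) was 0.0254% to 0.0652% in the 5 and 0.0259% to 0.0736% in the 11. The summed markers also overlapped between the 5 and the 11, at 153708 to 168053 against 139298 to 169418 CPM for muscle fibres, 342.4 to 635.3 against 142.4 to 699.6 CPM for slow fibres, 48.2 to 100.2 against 43.4 to 98.1 CPM for macrophages and 37.2 to 96.1 against 23.3 to 107.5 CPM for adipocytes. The 2 satellite cell markers summed to 4.20 to 5.78 CPM in the 5 and 2.90 to 4.88 CPM in the 11, and their part in the split was not tested. The part of collection time in this split was not tested, as the labels give no hour.

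**Figure D3:**
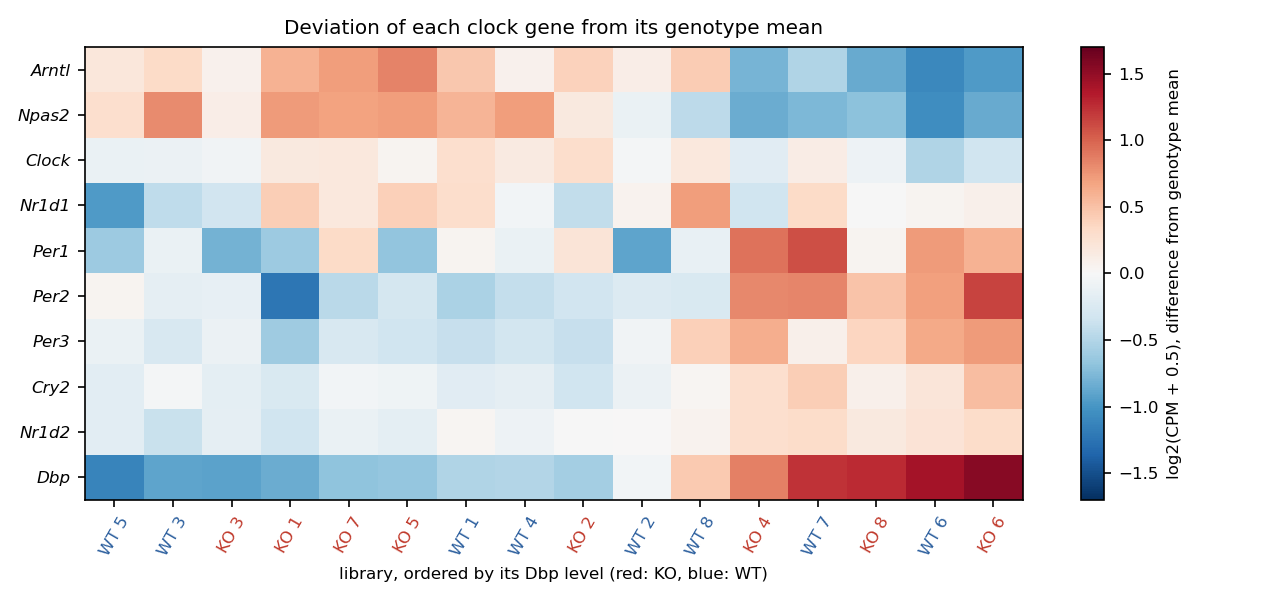
Deviation of each clock gene from the mean of its genotype, as a difference in log2(CPM + 0.5), for the 16 libraries ordered by their Dbp level (KO names in red, WT names in blue). The 5 libraries at the right, KO 4, WT 7, KO 8, WT 6 and KO 6, are below their mean in Arntl and Npas2 and above it in Per2, Cry2, Nr1d2 and Dbp, while Nr1d1 does not follow the order.

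The spread between libraries of the same genotype was large for these genes beside other genes of like abundance. The SD of log2(CPM + 0.5) within genotype was 0.99 for Dbp, 0.71 for Npas2, 0.66 for Arntl, 0.65 for Per2 and 0.64 for Per1. It was 0.44 for Per3, 0.43 for Nr1d1, 0.25 for Cry2, 0.23 for Clock and 0.23 for Nr1d2. Among tested genes within 1.5-fold of the same mean CPM, these SDs stood at the 90.2nd percentile (Clock) to the 99.6th percentile (Dbp), given as a description. The SD in KO and in WT was 0.76 and 0.54 for Arntl, 0.77 and 0.50 for Per2, and 0.33 and 0.51 for Nr1d1, and the difference in spread between genotypes was not tested.

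Over the 16 libraries, with each gene centred on its genotype mean, 33 of the 45 pairs of clock genes were correlated by a permutation test within genotype (100000 permutations, Benjamini-Hochberg adjustment over 45 pairs), and 26 by Spearman's rho. None of the 9 pairs with Nr1d1 was among the 33, and 34 pairs had an unadjusted p under 0.05. The 45 pairs share genes and the same 16 libraries, so the 33 are not separate results. The share of pairs of other genes that would pass this test was not determined. Since 6 of the genes split the libraries into separate sets, no coefficient over all 16 is given for single pairs. Within the 11 libraries outside the 5, 0 of the 45 pairs passed, and 5 had an unadjusted permutation p under 0.05. These 11 libraries were chosen after the values were seen, and leaving out the 5 also leaves fewer libraries and a narrower range for most of the genes. The count of 0 therefore cannot show whether the correlation rests on the 5 libraries alone. The signs of r also differed between the 2 sets. Of the 21 pairs of Arntl, Clock or Npas2 with a non-activator gene, 19 had a negative r over the 16 libraries and 12 over the 11. Of the 24 other pairs, 23 and 18 had a positive r. Arntl with Dbp, for example, had r = 0.20 over the 11 (permutation p = 0.445). The counts of signs were not tested. The set of 5 is too small for a coefficient of its own.

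Among the 11, the pair with the smallest p was Npas2 with Per3, at r = -0.82 (permutation p = 0.00475, adjusted p = 0.214) and rho = -0.80 (permutation p = 0.00542, adjusted p = 0.212). Without the 2 libraries farthest from the median of Npas2 its r was -0.56. Nr1d2 with Dbp had r = 0.68 (permutation p = 0.0455, adjusted p = 0.347) and rho = 0.75 (permutation p = 0.0149, adjusted p = 0.212), and r = 0.76 without the 2 libraries farthest from the median of Nr1d2. Nr1d1 with Dbp had r = 0.74 (permutation p = 0.0246, adjusted p = 0.347) and rho = 0.45 (permutation p = 0.206, adjusted p = 0.625). That r dropped to 0.29 without WT libraries 5 and 8, the lowest and the highest in Nr1d1. Clock with Per1, an activator and a repressor, had r = 0.70 (permutation p = 0.0226, adjusted p = 0.347) and rho = 0.71 (permutation p = 0.0188, adjusted p = 0.212), and r = 0.59 without the 2 libraries farthest from the median of Clock. Per2 with Nr1d1, both E-box targets, had r = -0.55 (permutation p = 0.0384, adjusted p = 0.347) and rho = -0.71 (permutation p = 0.0144, adjusted p = 0.212), and r = -0.62 without the 2 libraries farthest from the median of Per2.

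**Figure D4:**
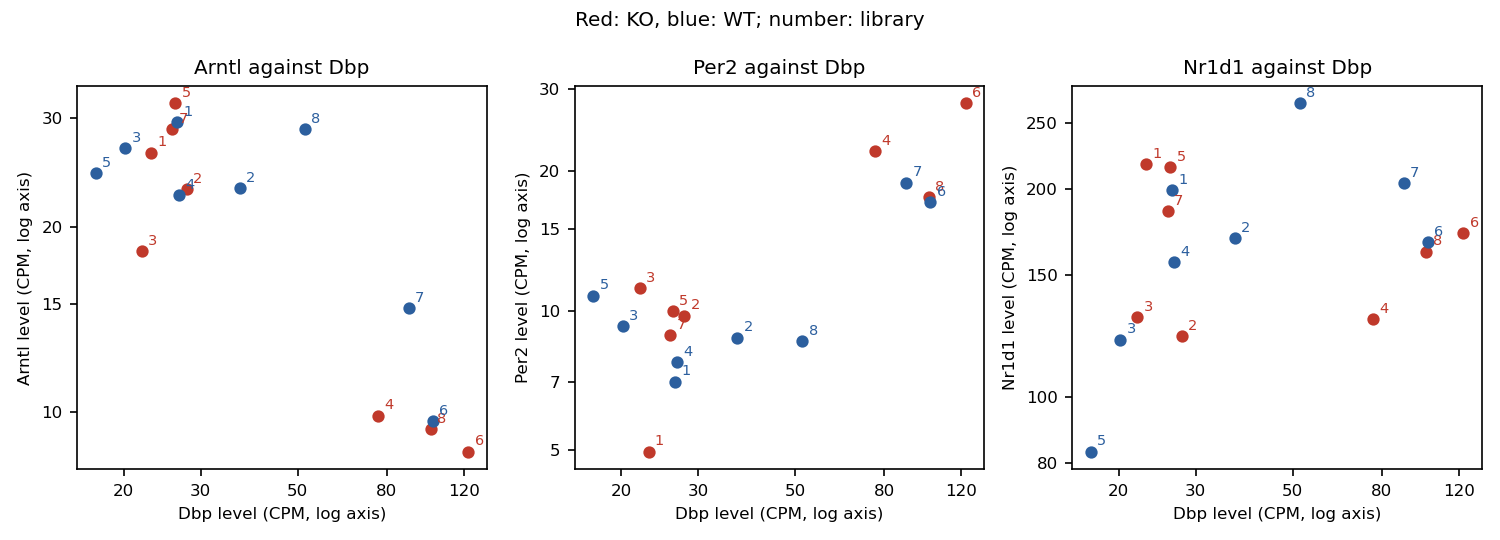
Levels of Arntl, Per2 and Nr1d1 against Dbp in CPM on log axes, 1 numbered point per library, KO in red and WT in blue. KO libraries 4, 6 and 8 and WT libraries 6 and 7 lie apart on the right, with Arntl at or below 14.8 and Per2 at or above 17.1, and mix the genotypes, while the Nr1d1 values of these 5 lie inside the range of the other 11.

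Between KO and WT, 0 of the 10 clock genes were called by edgeR's quasi-likelihood test (Benjamini-Hochberg adjusted p under 0.05 over all 13792 tested genes), where 0.0435% of all tested genes were called. The count was 0 with DESeq2 and with limma as well, and for 1 of the 10 DESeq2 left the adjusted p undefined. With each of the 3 tools, 0 of the 10 reached an unadjusted p under 0.05, which edgeR gave to 9.57% of all tested genes, 4.02% higher and 5.55% lower in KO. The ranges of KO and WT overlapped for all 10 genes, and 0.123% of all tested genes had ranges that did not. On the activator side, the mean of Arntl was 19.5 ± 9.31 CPM for KO and 22.4 ± 6.91 CPM for WT (SD, n = 8 each), and its log2 fold change -0.21 (standard error 0.28, edgeR adjusted p = 0.862, exact permutation p = 0.393). It ran from -0.34 without KO library 5 to -0.098 without KO library 6, and was -0.017 without KO 4, 6 and 8 and WT 6 and 7. Clock and Npas2 had log2 fold changes of -0.10 and -0.38 with standard errors of 0.11 and 0.41 (edgeR adjusted p = 0.810 and 0.824). With 1 library left out, Clock ran from -0.16 (without WT 6) to -0.057 (without KO 6) and Npas2 from -0.54 (without KO 7) to -0.19 (without WT 3).

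On the repressor side, Per3 came nearest to the threshold. Its mean was 24.5 ± 9.04 CPM for KO and 19.1 ± 5.35 CPM for WT (SD, n = 8 each), and its log2 fold change 0.37 (standard error 0.20, edgeR p = 0.0841, adjusted p = 0.596; exact permutation p = 0.171), and the WT mean was exceeded in 4 of 8 KO libraries. Without KO 4, 6 and 8 and WT 6 and 7 the log2 fold change of Per3 was 0.09. Per1 and Per2 had log2 fold changes of 0.25 and 0.35 with standard errors of 0.29 and 0.30 (edgeR adjusted p = 0.839 and 0.762), and Per2 was at 0.04 without the same 5 libraries. Per1 was at 0.08 without KO library 4, at 0.47 without WT library 7 and at 0.67 without KO libraries 1, 3, 5 and 8, the KO libraries with the largest shares of non-polyadenylated RNA. That fit (edgeR adjusted p = 0.536) and the fit with that share as a covariate (log2 fold change 0.61, edgeR adjusted p = 0.372) were the 2 of the 29 alternative fits that gave Per1 an unadjusted p under 0.05. For Cry2 the log2 fold change was 0.08 (standard error 0.12, edgeR adjusted p = 0.882).

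Nr1d1 and Nr1d2 had log2 fold changes of -0.03 and 0.04 with standard errors of 0.19 and 0.10 (edgeR adjusted p = 0.980 and 0.938). The mean of Dbp was 53.2 ± 40.8 CPM for KO and 46.4 ± 32.5 CPM for WT (SD, n = 8 each), and its log2 fold change 0.20 (standard error 0.45, edgeR adjusted p = 0.932, exact permutation p = 0.786). It was -0.26 without the 5 libraries. The precision differed among the genes. The 95% interval of the KO to WT ratio ran from 0.80 to 1.09 for Clock, 0.89 to 1.26 for Cry2, 0.89 to 1.20 for Nr1d2 and 0.75 to 1.28 for Nr1d1. It ran from 0.57 to 1.30 for Arntl, 0.43 to 1.39 for Npas2, 0.78 to 1.81 for Per1, 0.82 to 1.98 for Per2, 0.96 to 1.74 for Per3 and 0.60 to 2.22 for Dbp.

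With the Dbp level added to the fit as a covariate, an alternative chosen after the values were seen, none of the other clock genes was called by edgeR, and Per3 alone had an unadjusted p under 0.05 (log2 fold change 0.28, standard error 0.10, edgeR adjusted p = 0.370). The standard error in that fit fell from 0.28 to 0.16 for Arntl, from 0.41 to 0.18 for Npas2 and from 0.30 to 0.17 for Per2, while that of Nr1d1 was 0.19 in both. The adjusted p of Per3 ran from 0.370 upward over the 29 alternative fits, of which 6 gave it an unadjusted p under 0.05.

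**Figure D5:**
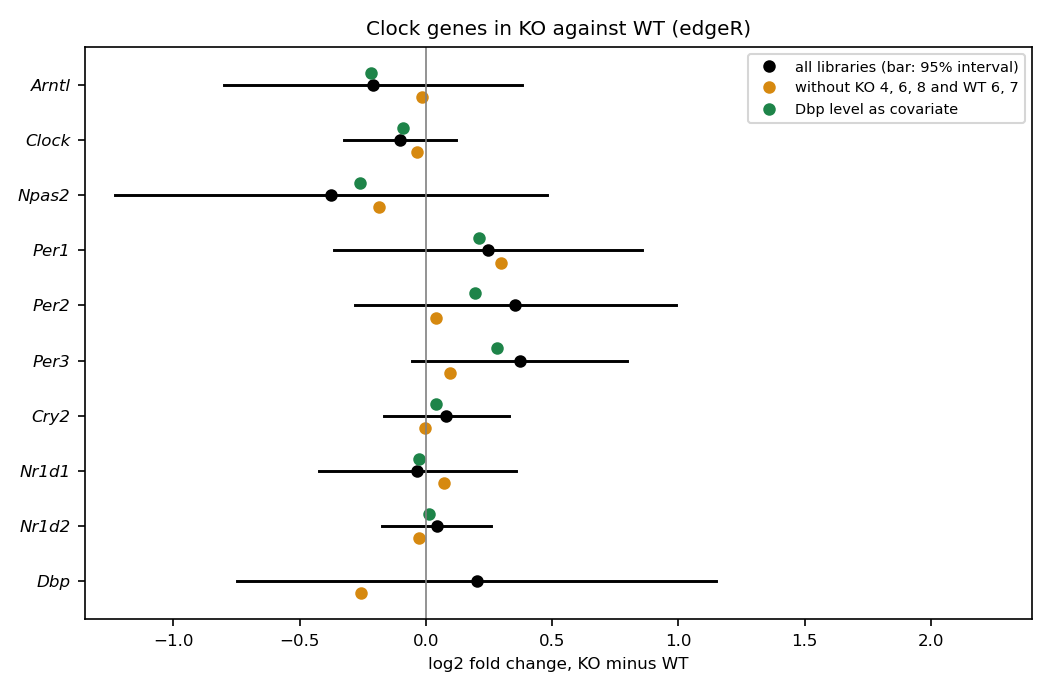
Log2 fold change of each clock gene, KO minus WT, from edgeR with its 95% interval (black, 8 KO and 8 WT libraries), without KO libraries 4, 6 and 8 and WT libraries 6 and 7 (orange) and with the Dbp level as a covariate (green, not defined for Dbp). All 10 intervals include 0, and the estimate of Dbp is 0.20 with all libraries and -0.26 without the 5.

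Of 26 other clock components and regulators 24 were tested and 0 were called between KO and WT (edgeR), with 1 higher and 2 lower at an unadjusted p under 0.05. Over all tested genes 0.0435% were called, and 4.02% were higher and 5.55% lower at an unadjusted p under 0.05 (edgeR). The median log2 fold change of the 24 was -0.00, against 0.00 over all tested genes. Bhlhe40, a transcriptional repressor acting on E-boxes, averaged 121.2 ± 16.5 CPM for KO and 104.8 ± 17.3 CPM for WT (SD, n = 8 each; log2 fold change 0.21, edgeR adjusted p = 0.516). Cry1, the second cryptochrome, and Ciart, a repressor of the ARNTL and CLOCK pair, had log2 fold changes of -0.10 and 0.17 (edgeR adjusted p = 0.805 and 0.957). Rora, a nuclear receptor that activates Arntl through the element that the REV-ERB proteins also bind, was at 0.01, and Bhlhe41 at -0.07. The most abundant members were Prkaa2, a catalytic subunit of AMP-activated kinase, Usp2, a deubiquitinase, and Csnk2a1, a casein kinase subunit, with log2 fold changes of -0.10, -0.05 and -0.02.

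Of 14 genes of clock output all were tested, and Nampt, the targeted gene, was the 1 called. Tef and Hlf, the relatives of Dbp that bind the same D-box, had log2 fold changes of 0.03 and 0.08, and Nfil3, which represses through that element, -0.27 with a standard error of 0.25 (edgeR adjusted p = 0.783). Lpin1 and Ppp1r3c, the most abundant members, were at -0.07 and -0.19. Of 16 muscle genes described as clock-controlled 0 were called by edgeR and 1 had an unadjusted p under 0.05. The shares over all tested genes were 0.0435% called and 9.57% at an unadjusted p under 0.05 (edgeR). The median log2 fold change of the 16 was -0.05, with Mylk4, Tcap and Cacna1s at 0.04, -0.06 and -0.03.

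The 5 libraries that stood apart in the 10 clock genes did so in 2 of the 24 other components, 2 of the 14 output genes and 1 of the 16 muscle genes, where 0.515% of all tested genes did. Ciart was at 5.87 to 9.47 CPM in those 5 libraries and at 1.00 to 2.88 CPM in the other 11, and Usp2 at 186.1 to 240.9 against 107.3 to 162.5 CPM. Hlf was at 17.8 to 25.4 against 11.0 to 17.2 CPM and Tspan4, a tetraspanin, at 7.00 to 10.1 against 3.86 to 6.83 CPM. Dyrk2, a protein kinase, was the 1 that was lower, at 23.97 to 33.3 against 35.5 to 47.4 CPM. Tspan4 and Dyrk2 were named after their values were seen. Nampt did not follow the split: in WT libraries 6 and 7 it was at 151.6 and 136.8 CPM, inside the WT range of 125.5 to 161.1 CPM, and in KO libraries 4, 6 and 8 at 76.5, 63.3 and 76.4 CPM, inside the KO range of 60.4 to 88.7 CPM.

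The genes whose pattern was most like that of Dbp, by Pearson's r of genotype-centred log2(CPM + 0.5) over the 16 libraries among 11380 named genes with a mean of at least 1 CPM and leaving out the 10 clock genes themselves, were Ciart (0.95), Ephx1 (0.92), Tef (0.91), Tmem86a (0.87) and Coq10b (0.87). Over the 11 libraries alone their r with Dbp was 0.71, 0.73, 0.74, 0.59 and 0.38. Among the most opposed to Dbp were Dlg5, Mras, Ypel2 and Myo10, between -0.92 and -0.90, and between -0.76 (Mras) and -0.28 (Myo10) over the 11. Most like Arntl were Slc25a36 (0.94), Fam73b (0.94), Mettl6 (0.94), Asb2 (0.94) and Zhx2 (0.91), with 0.78, 0.77, 0.49, 0.74 and 0.45 over the 11. With the 10 clock genes again left out, most opposed to Arntl were Usp2, Stk35, Tspan4, Rap1gap2 and Tm7sf3, between -0.88 and -0.82. Over the 11 they were between -0.67 (Rap1gap2) and -0.22 (Tm7sf3). These r are measures of likeness picked as extremes among many genes, over libraries that fall into separate sets, and carry no test. An absolute r above 0.8 with Dbp was reached by 64 of the 11380 genes and by 6 of the 9 other clock genes. With Arntl it was reached by 55 of the 11380 genes and by 4 of the 9 other clock genes.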

How the data were processed

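The tools named in the submitters' processing notes are bcl2fastq 4.0.3, Salmon and STAR, and the build is GRCm38; for other versions, the annotation and strand, nothing is given in the sources used here. The authors deposited estimated counts per gene, not scaled to depth, of which 11.1% were not whole, and all were rounded here. KO and WT were compared with edgeR 4.0.16 (R 4.3.3), TMM, the default low-count filter (13792 genes) and quasi-likelihood tests without covariates. DESeq2 1.42.0 and limma 3.58.1 were alternatives, with other scalings, filters, covariates and each library left out. Single genes also had an exact two-sided permutation test of log2(CPM + 0.5) over 12870 assignments. Exon lengths and coordinates came from GENCODE vM21 (GRCm38). No 2 libraries of a genotype agreed within sampling noise (chi-square per degree of freedom at least 8.09). The tests were tested on simulated data. The members, gene lists and tests were chosen with earlier results of these data known. All 10 members are named, with called members and the 3 most abundant genes of each list, further clock genes (Cry1, Ciart, Tef, Hlf, Nfil3, Rora, Bhlhe40, Bhlhe41), and the 5 most and least like Arntl and Dbp, except that some genes under this rule are not reported here.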

Additional observations from a re-analysis of the deposited data

How the results depend on the processing

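Over the 29 alternative fits, the number of clock genes called between KO and WT was 0 in each, and the exact permutation test called 0 in each of its alternatives. The number of genes called over the whole table was 6, and 2 with RLE normalization, with total counts alone, with the carry-over covariate, without KO libraries 1, 3, 5 and 8 or with the replicate block, 3 without the low-count filter, 3 without KO libraries 4, 6 and 8 and WT libraries 6 and 7, 96 with DESeq2, and 2 to 8 when 1 library was left out. The log2 fold changes of Arntl, Clock, Npas2, Per1, Per2 and Per3 kept their sign in every alternative. That of Nr1d1 turned to 0.0057 with limma, 0.070 with the RIN covariate and 0.070 without the 5 libraries that stood apart, where Cry2 turned to -0.0024, Nr1d2 to -0.029 and Dbp to -0.26. When 1 library was left out, Nr1d1 ran from -0.14 to 0.086, Nr1d2 from -0.0062 to 0.091, Cry2 from -0.0073 to 0.15 and Dbp from -0.10 to 0.47. The number of correlated pairs was 33, 28 to 34 with 1 library left out, 0 without the 5 libraries, and 4 with the replicate block, in which 8 within-number differences remain. Numbers shared by KO and WT do not pair the samples by the labels. Same-numbered KO and WT libraries correlated between -0.11 and 0.25 over all tested genes. There, 2 of 8 KO libraries correlated best with the WT library of their own number. Over the clock genes alone the correlation ran from -0.82 (number 4) to 0.98 (number 6). With the replicate block the standard error of Dbp was 0.29, against 0.45 without it. Per3 had an unadjusted edgeR p of 0.023 in that fit (adjusted p = 0.461). The cause of these changes was not tested.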

Other observations

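Genes that respond to glucocorticoids, fasting or tissue handling were listed beside the clock, since Per1 and others answer to such signals as well. None of the 12 glucocorticoid targets, 15 fasting genes and 17 immediate early genes was called between KO and WT (edgeR), and 0 of each list had an unadjusted p under 0.05. Over all tested genes 0.0435% were called and 9.57% had an unadjusted p under 0.05 (edgeR). The median log2 fold changes of the 3 lists were -0.06, -0.14 and 0.09. Below 0 were 7 of the 12, 14 of the 15 and 6 of the 17, where 6646 of all 13792 tested genes were below 0. Among the most abundant, Tsc22d3, Klf9 and Sgk1 were at -0.08, 0.09 and -0.09, Fbxo32, Pdk4 and Cpt1b at -0.04, -0.39 and -0.04, and Nr4a1, Jun and Dusp1 at -0.30, -0.07 and 0.03. In 0 of these 3 lists did a gene separate KO libraries 4, 6 and 8 and WT libraries 6 and 7 from the other 11. Over all tested genes 0.515% separated these libraries. Pdk4, a kinase that rises in fasted muscle, spanned 92.9 CPM in KO library 8 to 1358 CPM in WT library 7, both among the 5 libraries that were low in Arntl and high in Dbp.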
